A study of Mus musculus with 8 samples.

Results

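Muscle stromal cells that held the transcripts of both Stmn4 and Inmt, and none of Gdf10 or Dpp4, are described here against all other stromal cells of the same library. They were selected on measured values: a cell needed at least 1 unique molecular identifier (UMI) each of Stmn4 and Inmt and 0 UMIs of Gdf10 and Dpp4. It also needed at least 500 detected genes, at most 10% mitochondrial UMIs and at least 1 UMI of Pdgfra. The rule found 53 cells among 2968 that passed the quality and Pdgfra filter, out of 3797 deposited barcodes. Of these 53 cells, 4 came from the dysferlin knockout (KO) library and 49 from the wild type (WT) library. The KO group was female mice deficient in dysferlin (strain label BLA/J), aged 8 months, and the WT group was female C57BL/6 mice of the same age. Cells came from hindlimb muscle and were sorted as live, PDGFRα-positive single cells, with no injury or drug named in the labels. The labels list 4 samples in each group, but each group was deposited as 1 matrix with no map from cells to animals. Each group is therefore 1 library, no difference in the text has a replicate check, and intervals are exact 95% intervals that cover counting error only.

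PDGFRα-positive fibro/adipogenic progenitors (FAPs) are the main stromal cells of skeletal muscle. They make collagens and other matrix, can turn into fat cells or myofibroblasts, and support muscle stem cells after injury. FAPs and related fibroblasts are known to span a range from cells with Dpp4, Pi16, Cd55 and Sema3c, found in fascia-like connective tissue and often called progenitors, to cells within the muscle with Smoc2, Mme, Hsd11b1 and Cxcl14. Stmn4 encodes a stathmin, a protein that binds tubulin and is best known from neurons, and Inmt encodes an N-methyltransferase that acts on tryptamine and related amines. Gdf10 encodes a growth factor of the BMP family and Dpp4 a surface peptidase. Stmn4 lies at chr14:66344296-66361680 on the plus strand and Inmt at chr6:55170626-55175043 on the minus strand of the mm10 build.

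The filtered cells had a median of 12717 UMIs in the KO library and 9177 UMIs in the WT library. The selected cells held 65124 UMIs in all in KO and 457188 UMIs in WT, and 3 UMIs, the most that a count of 0 allows, correspond to 46.1 CPM in KO and 6.56 CPM in WT. CPM are a gene's UMIs per 1000000 UMIs summed over the cells of a class. Dysf, the gene affected in KO mice, had 0 UMIs in the selected cells of both libraries. In all filtered cells it had 14 UMIs in KO and 9 UMIs in WT, so its counts say nothing for or against the group labels. The libraries shared 13 barcodes, and none of them belonged to a selected cell. Endothelial-marker cells, which should lack Stmn4 and Inmt, served as a rough check on free RNA. In WT, 0 of 35 such cells held Stmn4, which allows up to 10.0%, and 3 of 35 (8.57%) held Inmt. They had a median of 3218 UMIs per cell, below that of the filtered cells. Dcn, a transcript of stromal cells, was found in 19 of the 35 (54.3%), so the level of free Stmn4 RNA is not settled by them.

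Both marker genes were found in a smaller share of KO cells than of WT cells. Stmn4 was present in 87 of 1435 KO cells (6.06%, 4.88 to 7.42) and in 289 of 1533 WT cells (18.9%, 16.9 to 20.9). Inmt was present in 210 KO cells (14.6%, 12.8 to 16.6) and in 949 WT cells (61.9%, 59.4 to 64.3). Both genes together were found in 17 KO cells (1.18%) and in 168 WT cells (11.0%). After the limit on Gdf10 and Dpp4, the selected cells made up 0.279% of KO cells (0.0760 to 0.712) and 3.20% of WT cells (2.37 to 4.20). With every cell thinned to 4000 UMIs, the shares were 0.228% in KO and 3.70% in WT. In thinned WT cells, 27 of the 49 cells that met the rule also met it at full depth. Thinning left out 117 KO and 210 WT cells that were shallower.

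**Figure D1:**
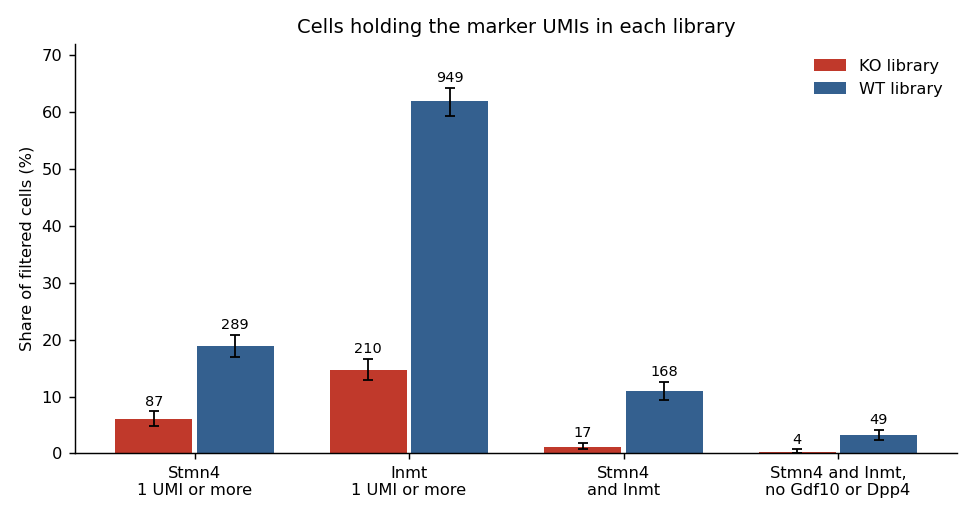
Share of filtered cells (y axis, percent) that held at least 1 UMI of Stmn4, of Inmt, of both, and of both with no Gdf10 or Dpp4 (x axis), in the KO library (red, left) and the WT library (blue, right). Numbers above the bars are cells and error bars are exact 95% intervals for counting error; at each step the KO share was below the WT share, down to 4 KO and 49 WT cells.

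The KO shares were also below the WT shares within classes of cells set by other gene pairs, though Dpp4 of the first pair is also a rule gene. Among cells with UMIs of both Dpp4 and Pi16, Stmn4 was found in 14.2% of 443 KO cells and in 43.9% of 460 WT cells. Inmt was found in 18.1% of these KO cells and in 59.6% of these WT cells. Among cells outside the selection with UMIs of both Mme and Hsd11b1, Stmn4 was found in 3.42% of 439 KO cells and in 6.75% of 400 WT cells. Inmt was found in 13.9% of them in KO and in 73.8% in WT. The selection took 3 KO and 15 WT cells out of this class, all of them with Stmn4 and Inmt. With 1 library per group and a different strain label in each, differences of genotype, strain and library cannot be told apart.

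The data did not show Stmn4 and Inmt as a joint marker pair. In WT, Inmt was found in 58.1% of cells with Stmn4 (52.2 to 63.9) and in 62.8% of cells without it (60.0 to 65.5). In KO, Inmt was found in 19.5% of cells with Stmn4 (11.8 to 29.4) and in 14.3% of cells without it (12.5 to 16.3). Thinned WT cells gave 44.8% and 51.0% in the same order. The label of a Stmn4 and Inmt positive cell type was therefore not borne out by how often the genes met in 1 cell, and the cells are called by their rule below.

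At full depth, most cells with both genes carried Dpp4, a gene that the rule excludes. In WT, Dpp4 was found in 115 of 168 cells with both Stmn4 and Inmt (68.5%, 60.8 to 75.4), against 452 of 1365 other cells (33.1%, 30.6 to 35.7). Gdf10 went the other way, at 7.74% of cells with both genes and 23.6% of other cells. In KO, Dpp4 was found in 11 of 17 cells with both genes (64.7%, 38.3 to 85.8) and in 36.9% of other cells. The limit on Gdf10 and Dpp4 removed 119 of the 168 WT cells, of which 106 had Dpp4 only, 4 had Gdf10 only and 9 had both. In 32 of these 119 cells a single UMI of Gdf10 or Dpp4 decided. At the other threshold, 29 of the 49 selected WT cells had exactly 1 Stmn4 UMI, 7 had exactly 1 Inmt UMI and 15 had at least 2 of each. The selected cells had a median of 9444 UMIs, against 11539 in the 119 excluded cells. The part of depth in the absence of Dpp4 UMIs was not tested. In thinned WT cells Dpp4 was found in 27 of 77 cells with both markers (35.1%, 24.5 to 46.8) and in 24.5% of the others (22.1 to 27.0). These intervals overlap, and cells with both markers and Dpp4 were then a minority. Thinned KO cells gave 1 of 5 (20%) with both markers and 20.3% of the others.

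Cell by cell, the 4 selected KO cells had 1, 7, 1 and 3 Stmn4 UMIs and 1, 9, 4 and 8 Inmt UMIs, ordered from the deepest cell to the shallowest. The 49 WT cells had 1 to 11 Stmn4 UMIs with a median of 1, and 1 to 38 Inmt UMIs with a median of 3. Pdgfra, the sort marker, had 1 to 9 UMIs per cell in KO and 1 to 14 in WT. Relative to depth, Stmn4 was at 184 CPM in the selected KO cells and 203 CPM in the selected WT cells, and Inmt at 338 and 571 CPM. These values follow from the rule and carry no test. Most cells thus met the rule with few molecules, and 1 WT cell alone held 38 of the 261 Inmt UMIs.

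**Figure D2:**
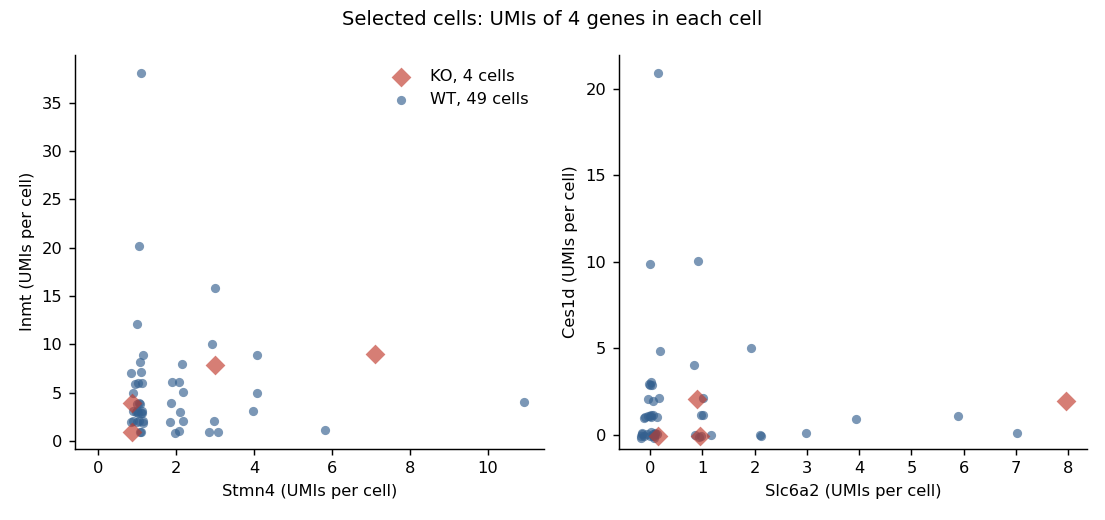
UMIs per selected cell of Stmn4 (x) against Inmt (y) on the left and of Slc6a2 (x) against Ces1d (y) on the right, with 4 KO cells as red diamonds and 49 WT cells as blue circles, slightly jittered. Most WT cells lie at 1 Stmn4 UMI; Slc6a2 was present in 16 and Ces1d in 26 of the 49 WT cells, and 1 KO cell held 8 Slc6a2 UMIs.

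Placed among all WT cells by expression, with the rule genes left out, the selected cells neighboured one another above their share of the library. Other cells also had selected neighbours above that share. Of the 15 nearest neighbours of a selected WT cell, 5.85% on average were selected cells themselves, against 4.26% for other cells and 3.20% of the library. At least 1 selected neighbour was found for 30 of the 49 selected cells and for 658 of 1484 other cells. Cells with both Dpp4 and Pi16 made up 42.6% of their neighbours, against 34.1% for other cells and 30.0% of the library. For the 119 excluded cells with both markers the same share was 70.8%. Cells with Mme and Hsd11b1 made up 33.1% of the neighbours of selected cells, against 29.9% for other cells. Gdf10 cells made up 11.7%, against 20.9%. Stmn4 cells as a whole did lie together: 56.8% of their neighbours in WT held Stmn4, against 18.9% of the library. In KO, Stmn4 cells had 20.2% of neighbours with Stmn4, against 4.18% for cells without it, and the 4 selected KO cells had no selected neighbour. Inmt was found in 56.7% of the neighbours of the selected KO cells, against 14.3% for other KO cells. These shares describe the placement and have no test.

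The surface and matrix genes of FAPs were at about the same level in selected and other WT cells, and of 11 FAP identity genes Col1a1 was the one at least 1.5-fold apart. Dcn, encoding the proteoglycan decorin, was at 19423 CPM in the selected cells and 18898 CPM in other WT cells, and every selected cell held it. Cd34 was at 1122 and 893 CPM and Ly6a, encoding Sca1, at 1614 and 1392 CPM in the same order. Pdgfra itself was at 459 CPM in selected cells and 495 CPM in the others. Across 5850 genes with a mean of at least 20 CPM over both classes, 88.4% were within 1.5-fold and the median log2 ratio was 0.04. A ratio of 2-fold or more was reached by 34 genes (0.581%) in the higher direction and by 92 genes (1.57%) in the lower direction. Since the rule also excludes Gdf10 and Dpp4, a narrower comparison was made with other WT cells that also lacked both. There, 2-fold was reached by 78 of 5863 genes (1.33%) upward and by 127 genes (2.17%) downward. Of the 34 and 92 genes of the first comparison, 22 and 75 passed 2-fold in the second.

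Slc6a2, encoding the noradrenaline transporter of nerve endings, had the highest ratio in the selected WT cells. It had 35 UMIs in 16 of the 49 cells (32.7%) and was found in 10.8% of the other WT cells. Its level was 76.6 CPM in the selected cells and 16.9 CPM in the others, a log2 ratio of 2.18 (1.62 to 2.70). At 16.9 CPM in the others, Slc6a2 reached the floor of a mean of 20 CPM only through the selected cells. A single cell held 7 of the 35 UMIs, and without each class's top cell the log2 ratio was 1.93 (1.31 to 2.50). Over other cells without Gdf10 and Dpp4 the log2 ratio was 2.24. It was 1.38 with cells thinned to 4000 UMIs and 1.22 with no limit on Gdf10 and Dpp4 in the rule. In KO, the selected cells had 1, 8, 0 and 1 Slc6a2 UMIs, which gave 154 CPM against 7.90 CPM in other KO cells. The gene lies at chr8:92960079-93001667.

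Ces1d, encoding a carboxylesterase that acts on lipids and drugs, lies in the same region at chr8:93166068-93197838, with 3 other counted carboxylesterase genes between it and Slc6a2. Ces1d was at 190 CPM in the selected WT cells and 78.1 CPM in the others (log2 1.28, 0.95 to 1.60). It was found in 53.1% of the selected cells and 36.6% of the others. One cell held 21 of its 87 UMIs, and without the top cells the log2 ratio was 0.93. The Ces1d ratio was also below 2-fold over other cells without Gdf10 and Dpp4 (log2 0.87), in thinned cells (0.62), with at least 2 UMIs of each marker (0.39) and with no limit on Gdf10 and Dpp4 (0.36). Pgf, encoding placental growth factor, a ligand of VEGF receptor 1, was at 89.7 CPM in selected and 37.3 CPM in other cells (log2 1.27, 0.77 to 1.73), with 9 of its 41 UMIs in 1 cell. In thinned cells the Pgf log2 ratio was 0.14, below 2-fold.

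The other named genes that were higher rested on fewer UMIs. These were Wasf3, an actin regulator, Clmn, Tsku, a small secreted proteoglycan, Pde7a, a cyclic AMP phosphodiesterase, the palmitoyltransferase Zdhhc9, the AMPK subunit Prkab2, Entpd1 (CD39, which degrades extracellular ATP), Gpd1l, Klhl7, Men1 (menin), Zfp580 and the growth factor Fgf1. Their log2 ratios lay between 1.13 for Fgf1 and 1.69 for Wasf3, with 13 UMIs for Zfp580 at the low end and 21 for Tsku at the high end. Wasf3 was at 32.8 CPM in the selected cells and 10.2 CPM in the others, and Tsku at 45.9 and 16.5 CPM. All of these genes were below 20 CPM in the other cells. They reached the floor of a mean of 20 CPM only through the selected cells, so the filter itself favoured higher ratios. Fgf1 was found in 6 of 49 selected cells (12.2%) and in 11.2% of the others. Zfp580 overlaps the counted gene Ccdc106 on its own strand. Without each gene's top cell in each class, 8 genes in place of 34 were at least 2-fold higher, and 198 in place of 92 lower. That step takes 1 of 49 selected cells but 1 of 1484 others, so it tends to lower ratios. Of the 15 named genes that were higher, Slc6a2, Klhl7 and Pde7a were at least 2-fold higher in thinned cells, and Slc6a2 alone with no limit on Gdf10 and Dpp4.

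**Figure D3:**
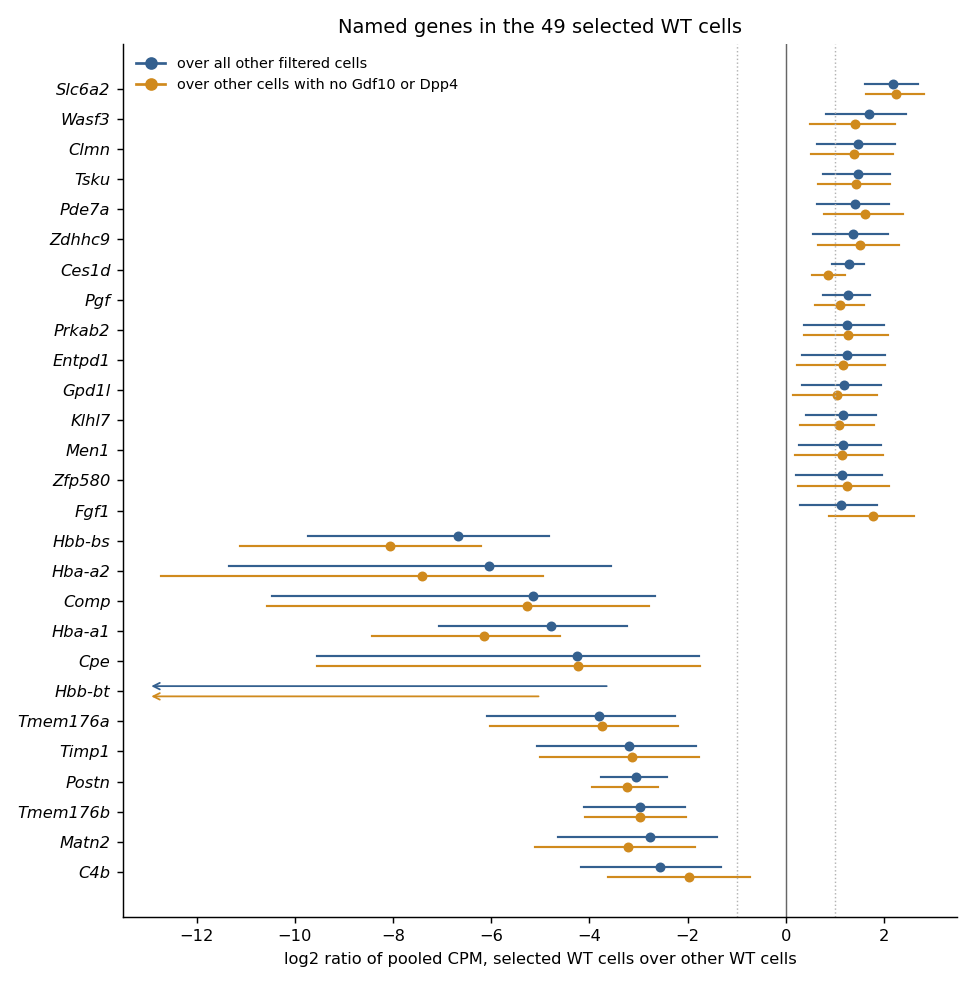
Log2 ratio of pooled CPM (x axis) for the 15 named genes with the highest and the 12 with the lowest ratios (y axis), selected WT cells over all other filtered WT cells (blue) and over other WT cells with no Gdf10 or Dpp4 (orange). Points are ratios, lines exact 95% intervals for counting error, arrows mark Hbb-bt with 0 UMIs in the selected cells, and dotted lines mark 2-fold; Slc6a2 lies farthest to the right at 2.18, and the 4 haemoglobin genes rest on 1 other cell.

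Genes lower in the selected WT cells were led by haemoglobin, and these values rest on 1 cell outside the selection. Of 12143 haemoglobin UMIs in other WT cells, 1 cell held 11978. Without the top cell, Hbb-bs was at 2.24 CPM in selected cells and 5.89 CPM in other cells, and the other 3 haemoglobin genes had 0 or 1 UMI left in the selected cells. Reads of Hba-a1 and Hba-a2, and of Hbb-bs and Hbb-bt, come from near-identical copies and may be split between them.

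The remaining named genes that were lower encode matrix, secreted and membrane proteins. Comp, a cartilage and tendon matrix protein, had 1 UMI in the selected cells (2.19 CPM), against 77.8 CPM in other WT cells. Cpe, a peptidase that processes prohormones, also had 1 UMI, against 41.7 CPM. Postn (periostin), a matrix protein of injured and fibrotic tissue, was at 43.7 CPM in selected and 362 CPM in other cells, a log2 ratio of -3.05 (-3.76 to -2.42). For Postn the share of cells with a UMI was similar, at 10.2% of selected and 12.7% of other cells, and 11 of the 20 UMIs in selected cells came from 1 cell. Timp1, an inhibitor of metalloproteinases, was at 8.75 and 80.3 CPM, and C4b of the complement system at 10.9 and 64.1 CPM. These 2 low values moved with the rule. With no limit on Gdf10 and Dpp4 the log2 ratio was -0.49 for Timp1 and -0.27 for C4b, against -3.20 and -2.55 with it. With the limit kept, the log2 ratios over other cells that also lacked Gdf10 and Dpp4 were -3.13 and -1.98. The cause was not tested. Matn2 was at 8.75 and 59.5 CPM. Tmem176a was at 6.56 and 91.5 CPM and Tmem176b at 19.7 and 155 CPM; these genes overlap on opposite strands, and whether the counting used strand was not stated. Timp1 likewise overlaps Syn1 on the opposite strand.

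Genes of the Dpp4 and Pi16 progenitor state lay close to the level of all other WT cells and above that of cells that also lacked Gdf10 and Dpp4. Of 10 described genes, 1 (Pi16) was at least 1.5-fold higher against all others, where 5.69% of all genes were that much higher and 5.88% that much lower. The median log2 ratio of the list was 0.27. In the narrower comparison 9 of 10 were at least 1.5-fold higher, with a median of 1.28, against 7.61% of all genes higher and 7.59% lower. Pi16, encoding a secreted peptidase inhibitor, was at 1256 CPM in the selected cells, 755 CPM in all other cells and 361 CPM in other cells without Gdf10 and Dpp4. Per cell it reached 0 to 9212 CPM with a median of 790 CPM in selected cells, against a median of 166 CPM in all other cells. Sema3c, a guidance factor, had a log2 ratio of 0.38 in the first comparison and 1.93 in the second. Smpd3, a sphingomyelinase, had 0.30 and 2.24, and Cd55, a complement inhibitor, 0.16 and 0.97. Pi16 and Cd55 were found together in 30 of 49 selected cells (61.2%, 46.2 to 74.8) and in 43.2% of other WT cells.

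Genes of interstitial FAPs were lower in the selected cells than in other cells without Gdf10 and Dpp4. Of 9 described genes, 7 were at least 1.5-fold lower than in those cells, against 7.59% of all genes, with a median log2 ratio of -0.75. Against all other cells 1 of 8, Cxcl14, was that much lower, with a median of -0.46, where 5.88% of all genes were that much lower. Cxcl14, a chemokine, was at 571 CPM in selected cells and 1438 CPM in other WT cells (log2 -1.33, -1.51 to -1.16). Smoc2, a matrix glycoprotein, was at 1888 and 2123 CPM in the same order. Hsd11b1, the enzyme that activates glucocorticoids, was at 103 and 149 CPM. Mme and Hsd11b1 together were found in 15 of 49 selected cells (30.6%, 18.3 to 45.4) and in 27.0% of the others, so interstitial markers were not missing from the selected cells.

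Set beside the 119 excluded WT cells with both markers, which are set apart mostly by Dpp4 itself, the selected cells differed in single genes of the progenitor and interstitial lists. Since the rule made this split, the values are a description. Pi16 was at 1256 CPM in selected and 1632 CPM in excluded cells, and Sema3c at 313 and 494 CPM. Smoc2 was at 1888 and 1038 CPM, and Cxcl14 at 571 and 315 CPM. Slc6a2 was at 76.6 CPM in selected and 25.2 CPM in excluded cells (log2 1.60, 0.90 to 2.31), and Ces1d at 190 and 73.5 CPM (1.37, 0.95 to 1.79). Pgf was at 89.7 and 60.3 CPM (log2 0.57, 0.00 to 1.12). In KO the same comparison of 4 with 13 cells gave Slc6a2 at 154 and 109 CPM, with an interval of the log2 ratio from -0.74 to 1.64.

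Split by marker, Slc6a2 was higher in cells with Stmn4 and Ces1d in cells with Inmt, in both libraries. In KO, Slc6a2 was at 46.7 CPM in 87 cells with Stmn4 and 5.60 CPM in 1348 cells without it (log2 3.06, 2.58 to 3.53). In WT it was at 33.6 CPM in 289 cells with Stmn4 and 14.4 CPM in 1244 cells without it (1.22, 0.86 to 1.58). Slc6a2 differed less between cells with and without Inmt in WT, at 21.2 and 14.9 CPM, while in KO it was at 24.1 and 5.69 CPM. Ces1d was at 65.3 CPM in KO cells with Inmt and 38.1 CPM in those without (log2 0.78), and at 101 and 50.2 CPM in WT (1.01). With Stmn4, Ces1d was lower in KO, at 16.8 CPM against 43.9 CPM without Stmn4, and in WT the values were 71.5 and 84.7 CPM. Pgf was higher in cells with Stmn4 in KO (25.3 and 6.16 CPM) and in WT (55.4 and 34.1 CPM). It was also higher in cells with Inmt in KO (13.1 and 6.48 CPM) and in WT (45.7 and 28.1 CPM).

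Pi16 and Cd55 of the progenitor list were higher, and Cxcl14 of the interstitial list lower, in cells with Stmn4 than in cells without it, in each library. Whether the libraries differed in this was not tested. Pi16 was at 1630 CPM in KO cells with Stmn4 and 510 CPM in KO cells without it, and at 1808 and 463 CPM in WT. Cd55 was at 597 and 157 CPM in KO and at 485 and 136 CPM in WT. Cxcl14 was at 570 CPM in KO cells with Stmn4 and 2355 CPM in those without, and at 266 and 1750 CPM in WT. Along Inmt, Pi16 was at 806 CPM in KO cells with Inmt and 548 CPM in those without, and at 691 and 901 CPM in WT. Postn was lower in cells with Inmt, at 334 and 774 CPM in KO and 133 and 703 CPM in WT. Comp was at 36.2 and 139 CPM with and without Inmt in WT. In KO Comp was at 55.4 and 47.7 CPM, with an interval of the log2 ratio (-0.043 to 0.464) that spanned 0.

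**Figure D4:**
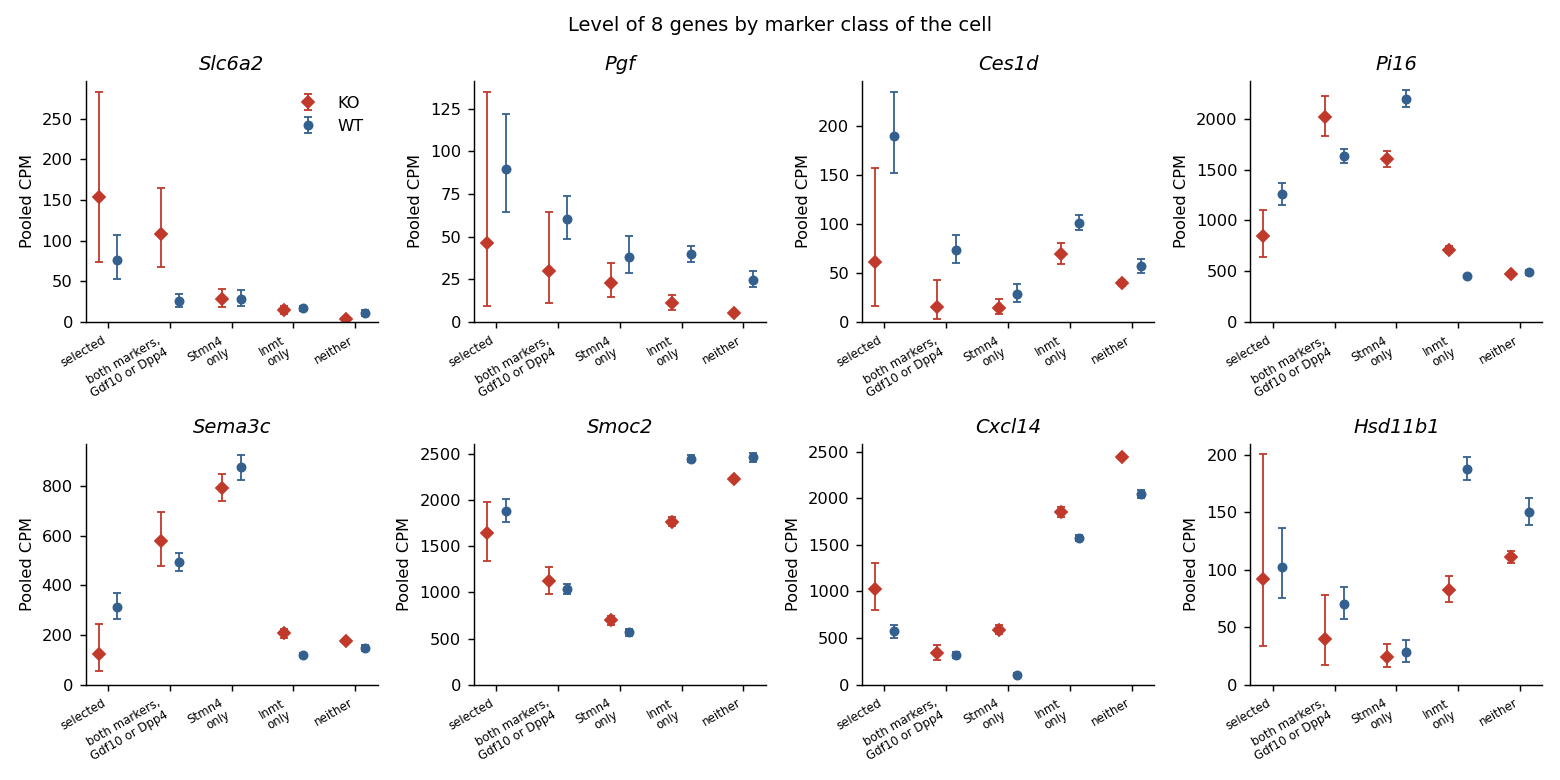
Pooled CPM (y axes, starting at 0) of 8 genes in 5 classes of cells (x axes: selected cells, cells with both markers and Gdf10 or Dpp4, Stmn4 only, Inmt only, neither) in KO (red diamonds, left) and WT (blue circles, right), with exact 95% Poisson intervals for counting error. Slc6a2 was at 154 CPM in KO and 76.6 CPM in WT selected cells, above the other 4 classes of the same library.

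Other gene groups are given by how many of the described genes were at least 1.5-fold apart from all other WT cells, against 5.69% of all genes higher and 5.88% lower. Of 3 described genes of activated FAPs, all 3 were lower: Postn, Lox, which crosslinks collagen, and Cpxm1, at log2 -3.05, -1.16 and -0.76. Cthrc1 of the same list had 0 UMIs in the selected cells, which allows up to 6.56 CPM, against 23.2 CPM in other cells. Of 8 complement genes 4 were lower (C4b, Clu, C2 and Cfb) and none was higher, and C3 had a log2 ratio of 0.17. Of 7 Wnt pathway genes 3 secreted antagonists were lower (Sfrp1 -0.69, Sfrp2 -1.56 and Sfrp4 -0.88), and the ligand Wnt11 was higher at 0.68 with an interval that spanned 0. Sfrp4 turned to 0.59 against cells without Gdf10 and Dpp4. Of 11 fibrillar and related collagen genes, 2 were lower (Col1a1 -0.59 and Col16a1 -0.89) and none was higher.

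In signalling and metabolic groups most genes lay within 1.5-fold. Of 8 BMP pathway genes Id2 was higher (0.66) and Id3 and Bmp5 lower (-0.94 and -0.83), and a single selected cell held 78.4% of the Id2 UMIs. Of 12 described growth and guidance factors, Pgf and Ntn4 (netrin 4, log2 0.59) were higher and Angpt1, Mdk, Angptl4 and Fgf7 lower. The interval lay below 0 for 3 of these 4 lower genes. Of 8 IGF pathway genes, Igfbp3 and Igfbp5 were lower (-1.15 and -0.94). Of 14 antioxidant genes Gstm1, a glutathione transferase, was higher at 0.60 (0.47 to 0.73) and was found in all 49 selected cells, and Mgst3 was lower at -0.68 with an interval that spanned 0. Other methyl transfer genes did not follow Inmt: none of 4 described genes was 1.5-fold apart, and Nnmt was at 87.5 CPM in selected and 107 CPM in other cells. The related stathmins Stmn1, Stmn2 and Stmn3 had 0 UMIs in the selected WT cells, against 7.38, 14.8 and 6.09 CPM in other WT cells. For Stmn1 and Stmn3 this is within or near what a count of 0 allows.

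Matrix, stress and lipid genes were also mostly within 1.5-fold of all other WT cells. No gene of the basement membrane (13 described) or heat shock (11 described) lists was 1.5-fold apart, but Col15a1, Col18a1 and Col4a1 were lower than in other cells without Gdf10 and Dpp4 (-1.07, -0.73 and -0.71). Of 12 elastic fibre genes Efemp1 (fibulin 3) was lower at -0.66, and it turned to 0.45 in the narrower comparison, where Emilin2 and Fbn1 (fibrillin 1) were higher at 1.03 and 0.72. None of 7 small leucine-rich proteoglycans was 1.5-fold apart. Of 19 proteases and inhibitors, Timp1 and Mmp3 were lower (-3.20 and -1.54). Of 16 immediate early genes, which tissue digestion is known to induce, Fosb was lower at -1.41. Of 13 glucocorticoid-responsive genes Sgk1 was lower at -0.75.

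The lipid carriers Apod and Apoe were the genes at least 1.5-fold apart among 10 adipogenic and lipid genes. Apod, encoding apolipoprotein D, was at 437 CPM in selected and 1536 CPM in other WT cells (log2 -1.81, -2.02 to -1.61). Mgp, an inhibitor of calcification, was at 1441 and 3317 CPM (-1.20, -1.32 to -1.09), and with Apoe (-0.98) and Bmp5 it was lower among 5 genes of the Fst and Dlk1 list. Of 6 genes of the Gdf10 and Hedgehog list, Fmo2 and Boc, a Hedgehog co-receptor, were lower (-1.79 and -0.87). Of 10 chemokines and cytokines Cxcl1 was lower at -1.31, and Ccl8 at -0.66 with an interval that spanned 0. Of 7 interferon genes Irf1 was lower (-1.17) and of 11 TGF-beta pathway genes the receptor Tgfbr1 (-1.03). Of 11 clock genes Nr1d2 was lower at -0.60 with an interval that spanned 0. The cell cycle list had 1 described gene of 10, within 1.5-fold.

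Markers of T or NK cells, macrophages and fat cells were at or near 0 in the selected WT cells. Those of muscle fibres, tendon, mural and endothelial cells were seen. All 6 myofibre markers were seen, with 27 UMIs in 18 of 49 cells, at 59.1 CPM in selected and 36.2 CPM in other cells. Tenocyte markers summed to 781 and 671 CPM, with 5 of 8 seen in 22 of 49 cells, Scx, Mkx and Kera at 0, and a range over cells of 0 to 6817 CPM in selected and 0 to 17118 CPM in other cells. All 6 T or NK cell and all 5 adipocyte markers were at 0, and 1 of 7 macrophage markers was seen, with 1 UMI. Of 8 neuronal markers 2 (Tubb3 and Syp) were seen, in 4 of 49 cells, at 21.9 CPM in selected and 32.4 CPM in other cells. Snap25, Elavl4, Nefl and Nefm were among those at 0. Endothelial markers summed to 17.5 and 24.3 CPM, with 6 of 7 seen, at 8 UMIs in 5 of 49 cells, and Cdh5 at 0. Mural markers summed to 74.4 and 56.4 CPM, with Cspg4 or Des seen in 22 of 49 cells. Rgs5, Notch3, Myh11 and Kcnj8 were at 0. Lymphatic endothelial markers summed to 8.75 and 5.23 CPM, with 2 of 5 seen. Satellite cell markers summed to 8.75 and 29.8 CPM, with Pax7 among the 4 of 5 at 0. Without cells that held 2 or more markers of another type, 9 of the 49 selected cells dropped out. Of the 15 named higher genes 13 were then still 2-fold higher, with Men1 at log2 0.85 and Fgf1 at 0.64. Of the 12 named lower genes 8 were still 2-fold lower, and the haemoglobin genes were not among them. The part of these other transcripts in the ratios was not tested further.

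The 4 selected KO cells allow little comparison with the 49 WT cells, because 1 UMI in them is 15.4 CPM. Of 2904 genes with a mean of at least 50 CPM, 2-fold was passed by 297 upward in KO (10.2%) and by 319 downward (11%). Without the deepest KO cell 577 passed it upward. That cell had 33672 UMIs, against 13186, 10063 and 8203 in the others, with 9.76% mitochondrial UMIs and 1 UMI each of Stmn4 and Inmt.

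Nearly all named genes that were higher in KO came from the deepest KO cell. It alone held all 9 UMIs of the interferon-induced chemokine Cxcl9 and all 12 of C4b. It held 20 of 21 Timp1 UMIs and 9 of 10 of the lymphatic chemokine Ccl21a. It also held 9 UMIs of Mcpt4, 7 of 8 of Cma1, 6 of Tpsb2 and 3 of Cpa3, which encode mast cell proteases, and 17 of Hbb-bs. Mcpt4 was also found in 120 and Cxcl9 in 341 of 1431 other KO cells. The doublet caller Scrublet marked 5 KO cells, none of them selected. The part of doublets and of depth in these values was not tested. Rtp4, an interferon-induced gene, had 6, 3, 0 and 0 UMIs in the 4 KO cells and 5 UMIs in all 49 WT cells. In the other filtered cells, Cxcl9 was at 271 CPM in KO and 2.51 CPM in WT, and Timp1 at 382 and 80.3 CPM, so other cells of the libraries differed in these genes too.

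Named genes that were lower in KO had 1 or 2 UMIs in the 4 cells. These were Pura, Aspn, Fam129a, Dlgap4, Vldlr, Mpc1, Sdc4 and Socs2. Pura, a nucleic acid binding protein, had 1 UMI in KO and 92 UMIs in 39 of the 49 WT cells, a log2 ratio of -3.71 with an interval from -9.03 to -1.20. Aspn, encoding asporin, had 2 UMIs in KO and 163 in WT (-3.54, -6.60 to -1.66). In the other filtered cells Pura was at 204 CPM in KO and 199 CPM in WT, and Aspn at 382 and 410 CPM.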

How the data were processed

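The members and gene lists were chosen with earlier results of these data known. The authors deposited raw UMI counts per gene and barcode, 1 matrix per group. Per the submitters' processing notes, Cell Ranger 3.0.0, Seurat and mm10 were used, with no role given for Seurat. Per the file headers, the software version is 3.0.2. How barcodes were called cells was not given in the sources used here. Libraries came from the 10x 3′ kit, per the labels' protocols. Counts were used as deposited, since every comparison has 1 library a group and no test fits. They were summed over cells of a class, scaled to CPM, and compared as log2 ratios with exact conditional binomial intervals; shares have Clopper-Pearson and sums Poisson intervals. A gene was described at a mean of 20 CPM or more (50 between KO and WT). A side with 0 UMIs was set to 3 for fold counts. The 5 rule genes were left out of gene counts. Named genes, leaving out predicted genes without a name, were the 15 highest and 12 lowest ratios in WT, the 8 highest and lowest of KO over WT within selected cells, and list members at least 1.5-fold apart. The text also names other genes of the lists, and these, Tpsb2, Cpa3 and genes within 1.5-fold were chosen after their values were seen. Neighbours used counts scaled to 10000 per cell, 2000 variable genes and 30 components. Doublets were left in and removed with Scrublet (scanpy 1.11.5) as an alternative; scipy 1.17.1 and scikit-learn 1.9.0 were used. Coordinates are from GENCODE for GRCm38 (mm10). The ratio code was tested on simulated data. Results of the Schwann cell and retinoid lists are not reported here.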

Additional observations from a re-analysis of the deposited data

How the results depend on the processing

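No paired analysis was possible because the matrices do not map cells to the labelled samples; leaving out a replicate was not run for the same reason. The KO share stayed below the WT share in all 7 alternatives. It was 1.18% in KO and 11.0% in WT with no limit on Gdf10 and Dpp4, and 0.978% in WT with at least 2 UMIs of each marker. The counts of genes at least 2-fold higher and lower in selected WT cells (34 and 92) moved with the filters. They were 171 and 269 after thinning, 267 and 376 with at least 2 UMIs of each marker, 266 and 497 at 5 CPM, 3 and 24 at 50 CPM, 920 and 737 without a filter, 78 and 165 over cells with no Stmn4 or Inmt, and 8 and 198 without each gene's top cell. The higher count was 53 with a stricter quality filter, 64 without cells of another type, 73 by means over cells and 78 over cells with no Gdf10 or Dpp4. Of KO over WT (297 and 319), the counts were 1408 and 203 thinned, 84 and 49 with no limit on Gdf10 and Dpp4, and 939 and 826 at 20 CPM; the higher count was 964 with at least 2 UMIs and 577 without the deepest KO cell. Thinning, filters and smaller classes leave fewer UMIs or other genes; the cause was not tested further. Of 351 values for 27 named genes, 9 changed sign: Entpd1 -1.18 and Zfp580 -0.41 thinned; Tsku -1.40 and Entpd1 -0.023 with at least 2 UMIs; Hbb-bs 0.12 and Hba-a1 0.037 without cells of another type; Hbb-bs 0.19, Hba-a2 1.19 and Hba-a1 1.97 over cells with no Stmn4 or Inmt. Another 50 lay outside the interval of the value as reported, with the same sign. Thinned, the log2 ratio was 0.14 for Pgf, 0.16 for Prkab2, 0.24 for Tsku, 0.31 for Wasf3, 0.38 for Fgf1, 0.41 for Men1, 0.51 for Zdhhc9, 0.62 for Ces1d, 0.019 for Gpd1l and 0.96 for Clmn, so that 3 of the 15 higher genes were still 2-fold higher. With no limit on Gdf10 and Dpp4 that was 1 of 15, and 9 of 15 with at least 2 UMIs of each marker. Of the 12 lower genes, 10 were still 2-fold lower with no limit on Gdf10 and Dpp4. Slc6a2, named for the highest ratio in these same cells, was at least 2-fold higher in all 13 (log2 1.22 to 2.86). The alternatives share cells and UMIs with the main comparison, so they are not independent of it. The alternatives without the deepest cells and without each gene's top cell were chosen after seeing the data. With 49 and 4 cells, a gene under 6.56 CPM in WT or 46.1 CPM in KO can go unseen.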
